A study of Mus musculus with 15 samples.

Results

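The Dlx and Msx genes encode homeodomain transcription factors. Of this family 6 genes, Dlx1, Dlx2, Dlx3, Dlx5, Msx1 and Msx2, were followed here across mouse MC3T3 cultures, of 8251 genes that the arrays measured with an unambiguous symbol. Each was represented by 1 probe set, taken by its gene symbol in the platform annotation and not by its values. MC3T3 is an osteoblast precursor line from mouse calvaria, and the arrays came from a single clone of it, 1b. There were 15 single-colour arrays, 3 in each of 5 groups. Treated cultures received bone morphogenetic protein 2 (BMP-2) and ascorbic acid (AA) on top of beta-glycerol phosphate (GP) for 1 or 3 days, GP cultures received GP alone for 1 or 3 days, and the remaining cultures were in growth medium at day 0. No group had AA without BMP-2 or BMP-2 without AA, so the 2 agents cannot be told apart here, and every group after day 0 had GP. The labels number the preparations from 1 to 3 in every group without saying whether these were separate cultures. The p-values therefore cover only the spread among these preparations, which may be technical.

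BMP ligands bind receptor kinases that phosphorylate Smad proteins, and these enter the nucleus and switch on target genes. Dlx and Msx genes are known as BMP-responsive regulators in the limb, the teeth and the bones of the skull. The proteins recognise similar AT-rich DNA sites. Dlx proteins act mainly as activators and Msx proteins mainly as repressors, and in mouse osteoblasts Dlx5 is known to promote, and Msx2 to restrain, the expression of late bone genes. Dlx genes lie in pairs in the mouse genome, with Dlx1 next to Dlx2, Dlx3 next to Dlx4 and Dlx5 next to Dlx6.

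Values are linear intensities in array units, and differences are log2 differences from limma, with Benjamini-Hochberg adjustment over 7453 probe sets and a threshold of 0.05. Probe sets whose mean signal over the 15 arrays (a mean of log2 values, written as an intensity) lay under 22.3 were not tested. Of the 6 genes 5 passed this filter and Dlx3 did not. Arrays with the same preparation number deviated together from their group means, with a correlation of 0.19 to 0.70 in all 30 pairs of arrays, so a fit with the preparation number as a block is given beside the fit without it where it changes a call. Standard errors (SE) and intervals in the text are from the fit without the block unless the block is named. With the block the SE of treated minus GP was smaller, at 0.22 against 0.33 for Dlx1 and 0.24 against 0.38 for Msx2. The preparation 3 arrays had 12.1% to 14.3% of values at the floor of 2.8, against 7.29% to 10.05% in preparations 1 and 2. For the actin control probe sets, 3' over 5' signal, which rises as RNA is degraded, was 2.11 on the GP day 3 array of preparation 3 and 1.00 to 1.34 on the other arrays. Of 8 osteoblast markers on the array 4 passed the signal filter, among them Col1a1, the main bone collagen gene, at 6727 to 11862, while the bone genes Ibsp, Dmp1, Phex and Pth1r lay under it in their mean over all arrays. Pth1r, the parathyroid hormone receptor gene, was not tested, yet averaged 202.7 units in treated cultures at day 3, against 6.43 in GP cultures. Its single values ran from 2.4 to 419.3 over all arrays. Ibsp, Dmp1 and Phex were not tested either, and none of them exceeded 54.7 units on any array. At day 3 the means of Ibsp and Phex were higher in treated than in GP cultures, and that of Dmp1 was lower. At day 3, 3 of the 4 tested osteoblast markers differed between treated and GP cultures in limma. Alpl and Tnfrsf11b were higher and Cdh11 was lower in treated cultures. Of 54 markers of chondrocytes, fat, muscle, macrophages and osteoclasts, endothelium, epithelium and neural cells 13 passed the filter. Of these 13, 0 differed between treated and GP cultures at either day in limma, with or without the block. Of all 7453 probe sets 22 were higher and 47 lower at day 1 without the block, and 151 and 155 at day 3. With the block 2.07% and 6.84% of all were higher at day 1 and day 3. At such shares 13 genes may well give 0 calls, so this count tells nothing about other cell types. In cultures measured in bulk, fewer cells that express a gene and less RNA per cell cannot be told apart.

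**Figure D1:**
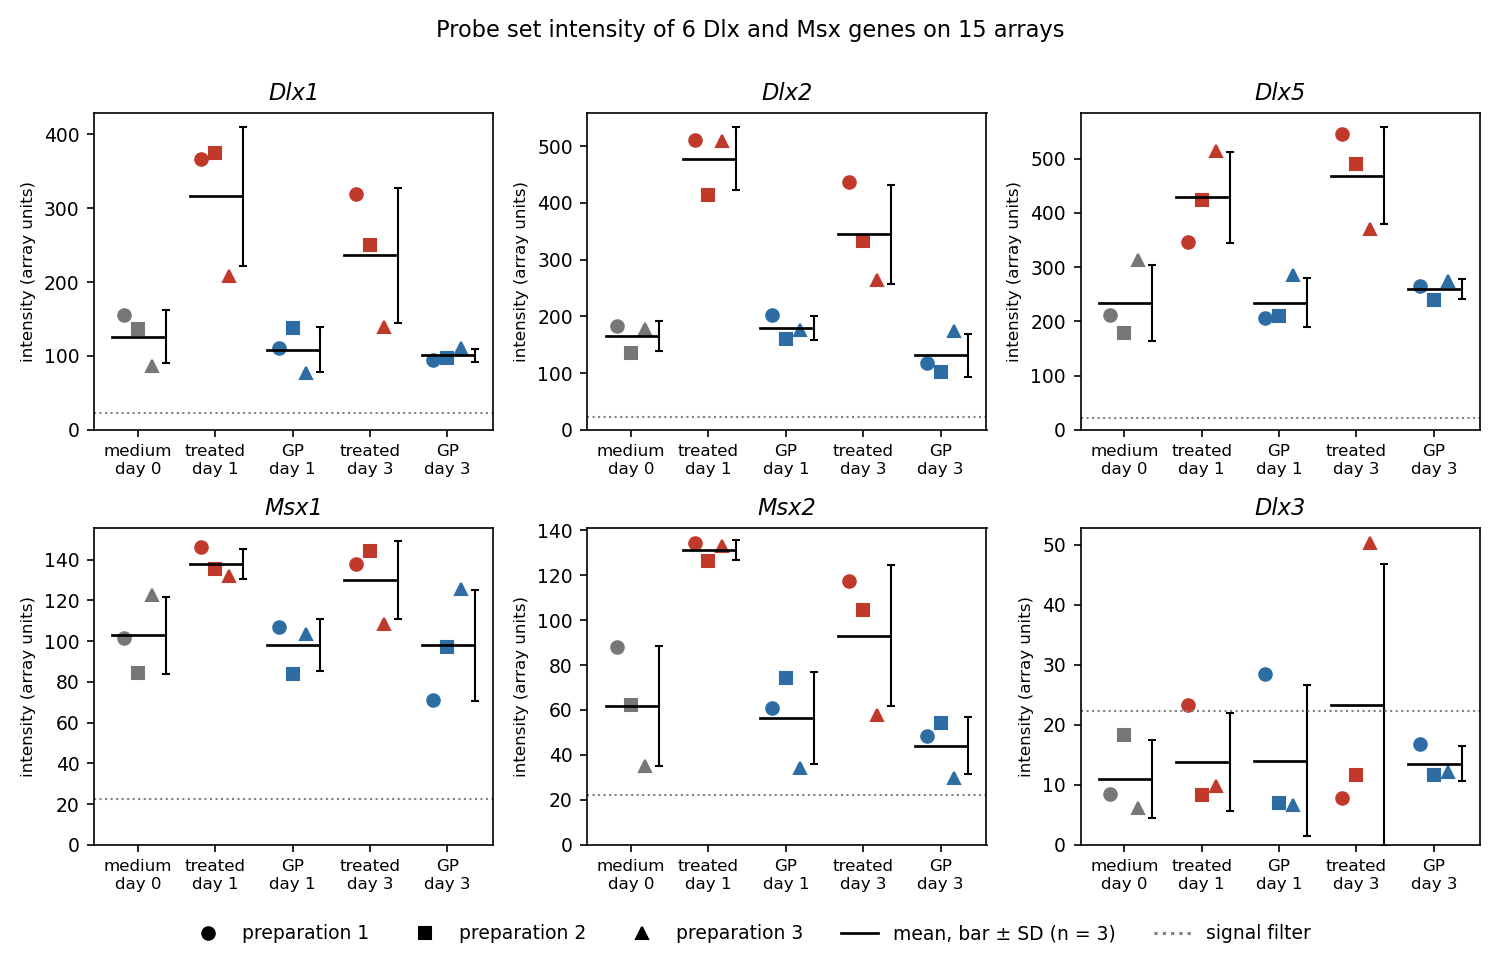
Intensity of each gene in array units on linear axes (own scale per panel) by group, with 1 point per array, its shape giving the preparation, and the mean ± SD of 3 arrays. Treated points of Dlx1, Dlx2, Dlx5 and Msx2 lie above all GP points of the same day. Dlx3 lies under the dotted signal filter of 22.3 on 12 of the 15 arrays, with a median of 11.6.

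Dlx1 and Dlx2 are neighbouring genes on chromosome 2, known for their part in patterning the upper jaw and in forebrain neurons. Both rose in treated cultures at day 1 and Dlx2 rose at day 3. Dlx1 (probe set 98394_at) had 366.1, 374.3 and 208.0 units in preparations 1, 2 and 3 of treated cultures at day 1, against 111.4, 137.6 and 76.4 in GP cultures. Treated cultures at day 3 had 319.3, 250.3 and 139.0 units of Dlx1, against 95.0, 96.6 and 110.6 in GP cultures. Growth medium at day 0 gave 156.1, 136.8 and 85.9. The treated values lay above the GP values of the same day at both days, and preparation 3 was the lowest in 4 of the 5 groups. The log2 difference was 1.54 ± 0.33 (SE) at day 1, which passed in limma (adjusted p = 0.0477), and 1.15 ± 0.33 at day 3, which did not pass without the block (adjusted p = 0.0710, and 0.00414 with the block). With array weights and no block it passed at day 3 as well (0.00426). By fold, Dlx1 stood at rank 18 of 7453 probe sets at day 1 and at rank 120 at day 3. The day 1 call of Dlx1 was lost without treated replicate 1 (adjusted p = 0.142) or 2 (0.178) and without GP replicate 1 (0.131), 2 (0.0894) or 3 (0.153), while without treated replicate 3 it stood (0.0353). With the block it stood in all 6 of these fits, at 0.00669 to 0.0132. At day 3, without treated replicate 3, Dlx1 passed without the block as well (0.0302). In the fit of all arrays without the block, the day 1 call also missed the threshold with quantile normalization (0.0501), with no signal filter (0.0920), with the floor raised to the 60th percentile (0.0827), with no mean trend (0.0663) and in a fit of only the 6 arrays compared (0.132).

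Dlx2 (92332_at) had the steadiest call. It had 510.3, 413.5 and 509.4 units in treated cultures at day 1, against 203.1, 160.8 and 175.2 in GP cultures. At day 3 it had 437.5, 332.0 and 263.9 in treated cultures, against 117.0, 102.7 and 174.1 in GP cultures. Growth medium had 183.0, 134.9 and 177.5. The lowest treated value of either day, 263.9, lay above the highest value of any GP or day 0 array, 203.1. Dlx2 rose by 1.41 ± 0.23 on the log2 scale at day 1 (limma adjusted p = 0.0107) and by 1.40 ± 0.23 at day 3 (0.00422), with 95% intervals of 0.93 to 1.90 and 0.91 to 1.88. Leaving out 1 array of the compared groups kept the day 3 call in all 6 fits (0.00212 to 0.0269). The day 1 call was lost without GP replicate 2 (0.0610) and kept in the other 5 fits (0.0310 to 0.0449). A fit of only the 6 arrays compared gave an adjusted p of 0.0542 at day 1 and 0.0611 at day 3.

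Sequence upstream of the start site was matched by symbol for 4 of the 6 genes in the RefSeq promoter table of build GRCm38.p6. The 250 bases before the start are printed for all of these 4, whatever their values. Dlx3 and Dlx5 had no entry there. Both strands were searched for TAATTG and TAATTA, forms of the core site that Dlx and Msx proteins recognise, and for GGCGCC, a GC-rich element of the kind found in BMP-responsive genes. Capitals mark the matches. TAATTA and GGCGCC read the same on both strands, and TAATTG and TAATTA can share bases at their ends.
Dlx1 (chr2:71529195-71529444, plus strand): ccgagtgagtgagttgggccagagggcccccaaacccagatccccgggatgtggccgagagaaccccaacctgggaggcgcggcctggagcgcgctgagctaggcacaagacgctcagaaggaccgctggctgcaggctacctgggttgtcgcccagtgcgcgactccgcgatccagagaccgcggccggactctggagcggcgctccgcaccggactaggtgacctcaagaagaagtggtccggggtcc
Dlx2 (chr2:71546755-71547004, minus strand): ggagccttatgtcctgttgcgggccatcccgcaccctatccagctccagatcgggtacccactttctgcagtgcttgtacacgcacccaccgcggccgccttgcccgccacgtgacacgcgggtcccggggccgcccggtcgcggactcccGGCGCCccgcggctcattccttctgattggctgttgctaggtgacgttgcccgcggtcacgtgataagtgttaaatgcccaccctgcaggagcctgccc
Msx2 (chr13:53472781-53473030, minus strand): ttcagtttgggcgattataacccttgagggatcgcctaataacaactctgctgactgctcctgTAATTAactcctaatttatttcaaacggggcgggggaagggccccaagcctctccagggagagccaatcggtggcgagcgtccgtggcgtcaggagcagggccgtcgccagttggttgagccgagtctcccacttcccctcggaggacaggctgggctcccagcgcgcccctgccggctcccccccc
Msx1 (chr5:37824586-37824835, minus strand): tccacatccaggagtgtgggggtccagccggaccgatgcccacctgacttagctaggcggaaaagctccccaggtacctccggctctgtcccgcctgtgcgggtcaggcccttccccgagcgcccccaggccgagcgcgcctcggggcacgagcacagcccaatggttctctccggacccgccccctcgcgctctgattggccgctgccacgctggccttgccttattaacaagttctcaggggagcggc
Dlx2 held 1 GGCGCC, starting 99 bases before the start site, a motif that 9.59% of 32851 promoter windows of this length held. Msx2 held 1 TAATTA, starting 187 bases before the start, found in 4.84% of windows, and none of the 4 held TAATTG, found in 7.17%. Dlx1 and Msx1 held none of the 3. GC content was 68.0% for Dlx1, 66.4% for Dlx2, 61.6% for Msx2 and 68.0% for Msx1, where the median window had 52.4%. A match describes these letters and not a bound site.

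Dlx5, an activator of osteoblast genes, had log2 differences of under 1 at both days. Dlx5 (92930_at) had 347.0, 424.7 and 514.8 units in treated cultures at day 1, against 206.6, 210.5 and 286.1 in GP cultures. Its day 3 values were 545.0, 490.9 and 371.0 in treated cultures, against 266.1, 239.3 and 274.3 in GP cultures. Medium at day 0 gave 211.2, 178.2 and 313.2, and the treated values of both days lay above all values of the other groups. The log2 difference was 0.87 ± 0.23 at day 1 (limma adjusted p = 0.0973, and 0.0250 with the block) and 0.84 ± 0.23 at day 3 (0.0547, and 0.0140 with the block). Without the block but with array weights it passed at both days (0.0159 and 0.00450). A stricter signal filter, at the 60th percentile, also gave a pass at day 3 (0.0435). The blocked call at day 1 stood without treated replicate 1 (0.0294) and was lost without treated replicate 2 (0.110) or 3 (0.0958) and without GP replicate 1 (0.0933), 2 (0.114) or 3 (0.0550). At day 3 it was lost without treated replicate 1 (0.0737) or 2 (0.0645) and without GP replicate 2 (0.0536), and stood in the other 3 fits. Without treated replicate 3 at day 3 Dlx5 also passed without the block (0.0490).

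Msx2, a repressor known for its role in growth of the skull bones, had log2 differences of over 1 at both days. Msx2 (102956_at) had 134.4, 126.1 and 132.8 units in treated cultures at day 1, against 60.8, 74.4 and 34.2 in GP cultures. At day 3 it had 117.2, 104.5 and 57.7 in treated cultures, against 48.3, 54.1 and 29.8 in GP cultures. Medium at day 0 gave 88.0, 62.3 and 34.9. The treated and GP values did not overlap at either day, and preparation 3 was the lowest array in 4 of the 5 groups but not among treated cultures at day 1. The log2 difference was 1.29 ± 0.38 at day 1 (limma adjusted p = 0.159, and 0.00857 with the block) and 1.06 ± 0.38 at day 3 (0.151, and 0.0107 with the block). Without the block it passed at day 3 with array weights (0.0409) and at day 1 with the floor at 79.0 (0.0142). That floor lies above all GP values of Msx2, so it set them equal and took away their spread. The day 1 difference was then 0.73, so this pass adds no support. The blocked calls stood when any 1 of the compared arrays was left out, at 0.0163 to 0.0466 for day 1 and 0.0225 to 0.0495 for day 3. Within preparations 1, 2 and 3 the difference was 1.14, 0.76 and 1.96 at day 1, and 1.28, 0.95 and 0.95 at day 3.

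Msx1, a repressor needed for tooth and palate development, had the smallest difference. Msx1 (101526_at) had 146.2, 135.3 and 132.0 units in treated cultures at day 1, against 106.8, 83.7 and 103.7 in GP cultures. On day 3 Msx1 had 137.8, 144.3 and 108.2 in treated cultures, against 70.9, 97.0 and 125.6 in GP cultures. Growth medium had 101.6, 84.3 and 122.4. The groups did not overlap at day 1 and overlapped at day 3, where treated preparation 3 was below GP preparation 3. The log2 difference was 0.50 with a 95% interval of 0.03 to 0.97 at day 1 (limma adjusted p = 0.396, and 0.203 with the block) and 0.44 with an interval of -0.03 to 0.91 at day 3 (0.340, and 0.205 with the block). The day 3 difference was 0.23 without GP replicate 1 (adjusted p = 0.754) and 0.18 without the whole of preparation 1 (0.957), while without preparation 3 it was 0.77 (0.0769). Msx1 passed in none of the 30 alternative fits at either day.

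Dlx3, which acts in hair, teeth, bone and the placenta, gave no usable level. Its probe set (99328_at) lay under 22.3 on 12 of the 15 arrays. It had 23.2, 8.3 and 9.8 units in treated cultures at day 1, against 28.5, 6.9 and 6.6 in GP cultures, and 7.8, 11.7 and 50.3 in treated cultures at day 3, against 16.8, 11.6 and 12.1 in GP cultures. Growth medium had 8.5, 18.3 and 6.1, and all groups overlapped. The single high value came from the treated day 3 array of preparation 3. With no signal filter Dlx3 did not pass at day 1 or day 3 in limma (adjusted p = 1.0 and 0.943). Of the remaining family, Dlx4, Dlx6 and Msx3 had probe sets at 5.7 to 49.0, 4.4 to 34.3 and 6.7 to 48.5 units, and only Msx3 passed the filter, with log2 differences of 0.14 at day 1 and -0.58 at day 3 (limma adjusted p = 0.991 and 0.789). The antisense transcripts Dlx1as and Dlx6os2, looked up after the values of their partner genes were seen, lay between 2.8 and 28.7 on all arrays.

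**Figure D2:**
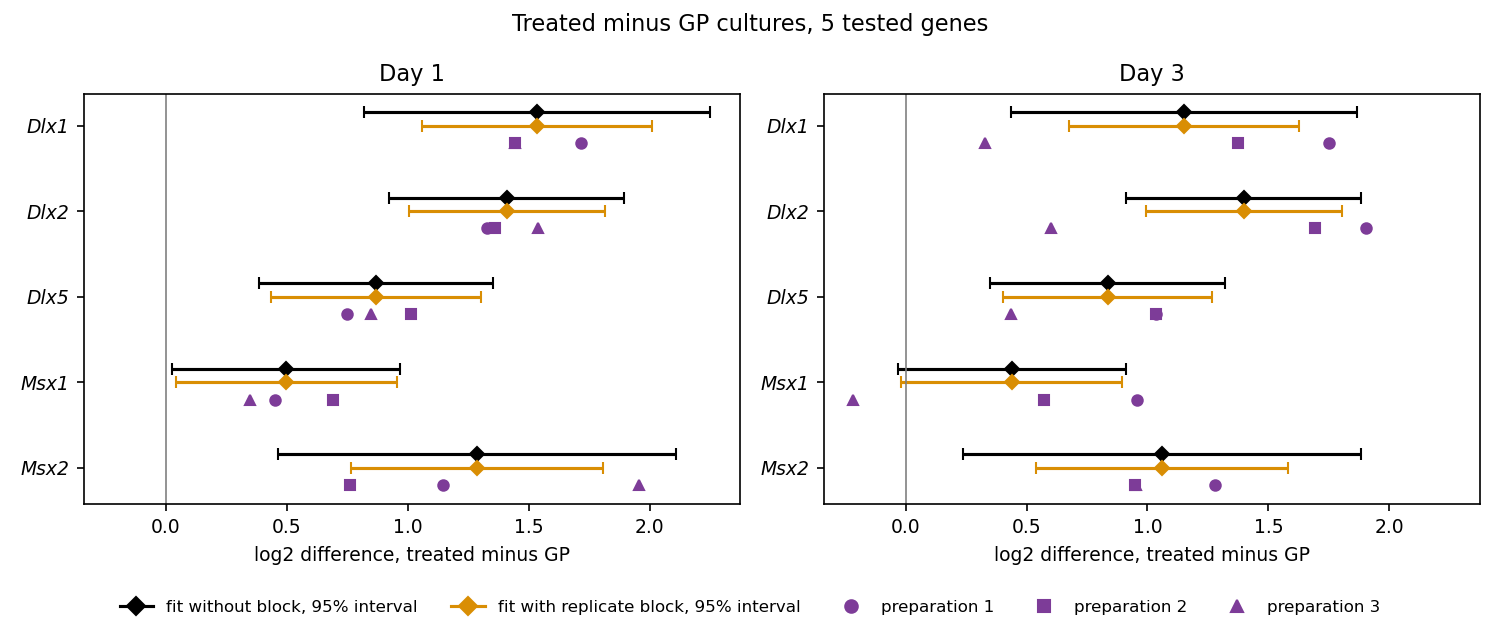
Log2 difference of treated minus GP cultures for the 5 tested genes at day 1 (left) and day 3 (right), with the estimate and 95% interval from the fit without (black) and with (orange) the replicate block, and the difference within each preparation (purple). All within-preparation differences are above 0 except that of Msx1 in preparation 3 at day 3, at -0.22.

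As a group, 2 of the 5 tested genes rose at day 1, Dlx1 and Dlx2, and 0.295% of all tested probe sets rose. With the block 4 rose, all but Msx1, where 2.07% of all probe sets did. At day 3, 1 rose, Dlx2, against 2.03% of all probe sets, and with the block 4 rose, where 6.84% of all did. None of the 5 was lower at either day. The median log2 difference of the 5 was 1.29 at day 1 and 1.06 at day 3, beside -0.004 and -0.0004 over all tested probe sets. Treated and GP values did not overlap, with treated higher, for all 5 at day 1 and for 4 at day 3, beside 8.44% and 10.5% of all probe sets.

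The day 3 difference varied between preparations in Dlx1, Dlx2, Dlx5 and Msx1. Within preparations 1, 2 and 3 it was 1.75, 1.37 and 0.33 for Dlx1. For Dlx2 it was 1.90, 1.69 and 0.60. Dlx5 had 1.03, 1.04 and 0.44, and Msx1 0.96, 0.57 and -0.22. In these 4 genes preparation 3, which includes the array with the high actin ratio, had the smallest difference at day 3. At day 1 preparation 3 had the largest difference of the 3 for Dlx2 and Msx2 and the smallest for Msx1 (0.35). For Dlx1 it was then level with preparation 2 (both 1.44), and for Dlx5 it lay between the others (0.85). The part of RNA quality in this was not tested. Without the GP day 3 array of preparation 3 the log2 differences at day 3 were 1.22 for Dlx1, 1.62 for Dlx2, 0.88 for Dlx5, 0.64 for Msx1 and 0.80 for Msx2. Dlx2 alone passed (limma adjusted p = 0.00212), as with that array. With the block in the same fit, Dlx1, Dlx2, Dlx5 and Msx2 passed (0.000241, 0.000157, 0.0464 and 0.0299).

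**Figure D3:**
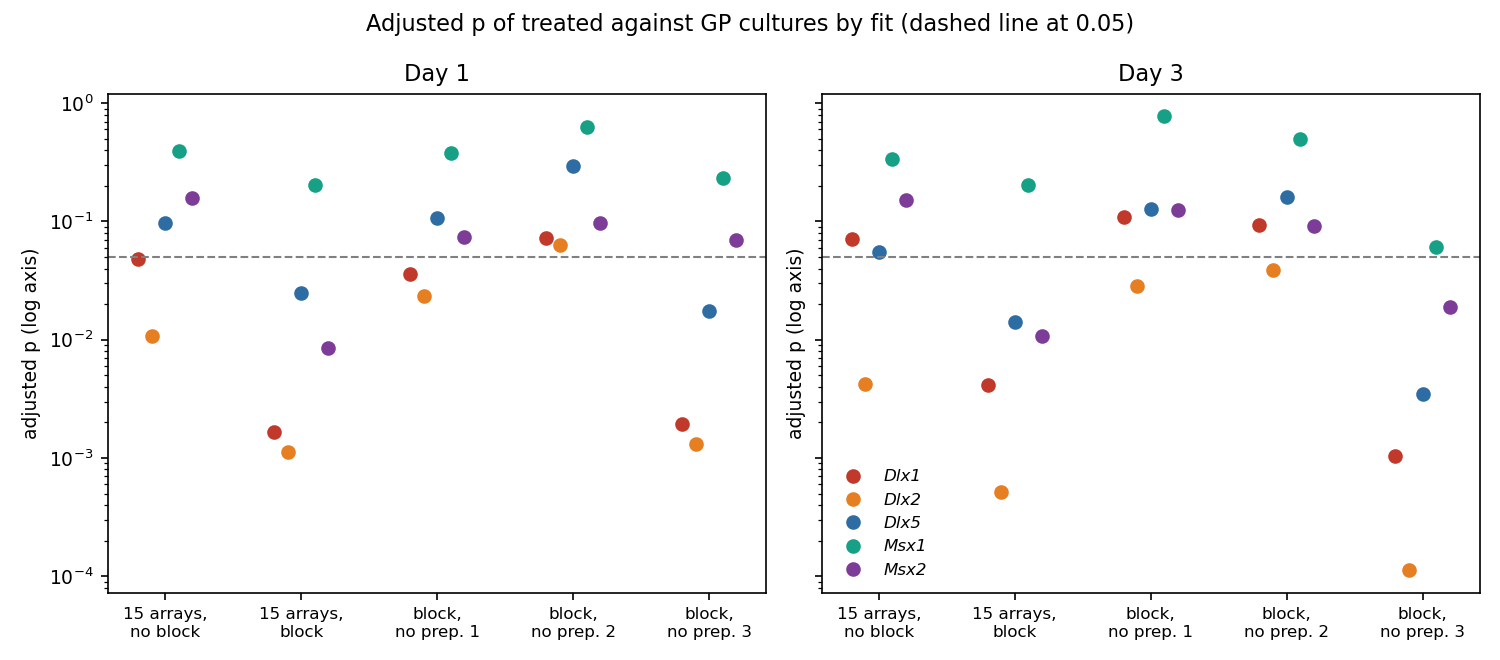
Adjusted p of treated against GP cultures at day 1 (left) and day 3 (right) on a log axis, for 5 genes in the fit of 15 arrays without and with the replicate block and in blocked fits without preparation 1, 2 or 3. Dlx2 lies under the dashed threshold of 0.05 in all of these except the day 1 fit without preparation 2, at 0.0631, and Msx1 lies above it in all.

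Leaving out a whole preparation leaves 2 arrays a group. The share of all probe sets that passed in these fits is not given here. Without preparation 3, Dlx1, Dlx2 and Dlx5 passed at day 1 (adjusted p = 0.00293, 0.0171 and 0.0285) and Dlx1, Dlx2, Dlx5 and Msx2 at day 3 (0.00161, 0.00171, 0.00645 and 0.0239). Without preparation 1 or 2 none of the 5 passed at either day in limma without the block, where Dlx2 had 0.275 and 0.366 at day 1 and 0.215 and 0.211 at day 3. In the blocked fits without preparation 1 Dlx1 and Dlx2 passed at day 1 (0.0357 and 0.0233) and Dlx2 at day 3 (0.0286). With the block and without preparation 3, Dlx1, Dlx2 and Dlx5 passed at day 1 (0.00195, 0.00132 and 0.0175) and, with Msx2, at day 3 (0.00103, 0.000113 and 0.00347, and 0.0188 for Msx2). The blocked day 1 call of Msx2 was lost without preparation 1 (0.0734), 2 (0.0963) or 3 (0.0692), and its day 3 call without preparation 1 (0.126) or 2 (0.0911). Without preparation 2 the blocked fit gave 0.0631 for Dlx2 and 0.0724 for Dlx1 at day 1, the lowest of the 5, and Dlx2 passed at day 3 (0.0385).

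Whether the treatment effect itself changed with time was tested next, as the effect at day 3 minus that at day 1. It was -0.38 for Dlx1, -0.01 for Dlx2, -0.03 for Dlx5, -0.06 for Msx1 and -0.23 for Msx2 on the log2 scale, and 0 of the 5 passed in limma, with or without the block, where 0.0% of all probe sets passed. At an unadjusted p under 0.05 there were also 0 of the 5 in either fit, beside 3.62% of all probe sets and 8.72% with the block. The 95% intervals were -1.40 to 0.63 for Dlx1, -0.70 to 0.67 for Dlx2, -0.72 to 0.65 for Dlx5, -0.73 to 0.61 for Msx1 and -1.39 to 0.94 for Msx2. With the block they were narrower, at -1.06 to 0.29 for Dlx1, -0.59 to 0.56 for Dlx2 and -0.64 to 0.58 for Dlx5. For Msx1 and Msx2 they were then -0.71 to 0.59 and -0.96 to 0.51. The sign for Dlx2 turned with quantile normalization (0.0026) and with median scaling (0.0027), so it has no settled direction.

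Levels in treated cultures were compared over time. Dlx1, Dlx2 and Msx2 were lower at day 3 than at day 1 in all 3 preparations, by 0.20, 0.58 and 0.58 on the log2 scale for Dlx1, 0.22, 0.32 and 0.95 for Dlx2 and 0.20, 0.27 and 1.20 for Msx2. None of these passed in limma (adjusted p = 0.834, 0.593 and 0.815, and 0.328, 0.194 and 0.261 with the block). Of all probe sets 18.4% were lower in all 3 preparations, while 0.148% passed in either direction and 3.84% with the block. At an unadjusted p under 0.05 there was 1 of the 5, Dlx2, where 8.29% of all probe sets had one, and with the block there were 2, Dlx2 and Msx2, where 16.5% did. Msx2 alone of the 5 had treated day 3 values wholly under its treated day 1 values, as 5.72% of all probe sets did. Dlx5 differed by 0.13 and Msx1 by -0.09, with an adjusted p of 0.954 and 0.977. In GP cultures at day 3 against day 1 the differences ran from -0.48 for Dlx2 to 0.16 for Dlx5, and 0 of the 5 passed in limma, where 0.711% of all probe sets passed. At an unadjusted p under 0.05 there were 0, and 1, Dlx2, with the block, beside 6.43% of all probe sets and 13.4% with the block.

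Against growth medium at day 0, the GP cultures had differences of -0.22 to 0.13 at day 1 and -0.43 to 0.19 at day 3 over the 5 genes, and 0 passed at either day in limma, where 0.242% of all probe sets passed at day 1 and 0.0% at day 3. At an unadjusted p under 0.05 there were 0 at each day, beside 3.46% of all probe sets at day 1 and 4.19% at day 3. Treated cultures and medium differed in the additions and in time together. Dlx1, Dlx2 and Dlx5 rose at day 1 against day 0, by 1.32, 1.54 and 0.90 (limma adjusted p = 0.0388, 0.00262 and 0.0386), where 2.28% of all probe sets rose. With the block Msx2 also rose, by 1.19 (0.119, and 0.00582 with the block), as did 6.02% of all. That call stood without any 1 of the compared arrays (0.00791 to 0.0363) and was lost without preparation 2 (0.0609) or 3 (0.0790). Dlx2 and Dlx5 rose at day 3 against day 0, by 1.04 and 1.02 (0.0263 and 0.0286), where 1.13% of all did, and with the block Dlx1 did so too (0.222, and 0.0216 with the block), as did 5.65% of all. This blocked call of Dlx1 stood without treated replicate 3 (0.0188), medium replicate 1 (0.0449) or preparation 3 (0.0132). It was lost without treated replicate 1 (0.107) or 2 (0.0582), medium replicate 2 (0.0672) or 3 (0.0883), and preparation 1 (0.145) or 2 (0.148). The same treated arrays enter these comparisons and those with GP cultures. Without 1 array the call of Dlx2 at day 1 stood in all 6 fits (0.00782 to 0.0133). That of Dlx1 stood only without treated replicate 3 (0.0358) and was lost without treated replicates 1 and 2 (0.138 and 0.158) and medium replicates 1, 2 and 3 (0.0599, 0.0806 and 0.160). That of Dlx5 stood without treated replicate 1 (0.0416) and medium replicate 3 (0.0222), and was lost without treated replicates 2 and 3 (0.115 and 0.142) and medium replicates 1 and 2 (0.130 and 0.152). At day 3 both calls were lost without treated replicate 1 (0.0981 for Dlx2 and 0.100 for Dlx5) or 2 (0.0848 and 0.104) and medium replicate 1 (0.0655 and 0.111) or 2 (0.104 and 0.109), and that of Dlx2 also without medium replicate 3 (0.0573).

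From high to low mean log2 level, the order of groups was treated day 1, treated day 3, GP day 1, medium, GP day 3 for Dlx2, and treated day 3, treated day 1, GP day 3, GP day 1, medium for Dlx5. In Dlx1, Msx1 and Msx2 it was treated day 1, treated day 3, medium, GP day 1, GP day 3. Neighbours in this order whose values did not overlap were treated day 3 and GP day 1 in Dlx2, treated day 1 and GP day 3 in Dlx5, and treated day 1 and treated day 3 in Msx2. All other neighbours overlapped, so the order among GP and medium cultures was within the spread of the arrays.

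Likeness of pattern was measured as the root mean square difference, over the 15 arrays, between log2 values each centred on the gene's own mean. Over 5642 other tested genes the nearest to Dlx1 was Msx2, at 0.32, and the nearest to Msx2 was Dlx1, where the median gene lay at 0.81 from Dlx1 and at 0.78 from Msx2. Both were lowest in preparation 3 in 4 of the 5 groups, so the preparations as well as the treatment enter this measure. Dlx1 was at rank 8 from Dlx2, at 0.41, behind the zinc finger gene Zfp703 (0.28), Shf (0.31) and Smad6 (0.34), an inhibitor of BMP signalling. Next after Msx2 for Dlx1 came Foxf2, a forkhead transcription factor, and Mrps28, a mitochondrial ribosomal protein (both 0.37). For Msx2 they were Clock, a circadian transcription factor (0.35), and Slc25a10, a mitochondrial carrier (0.36). The nearest to Dlx5 were Snai2, a zinc finger repressor (0.20), Ogdh, an enzyme of the citric acid cycle (0.24), and Nr2c2ap (0.26). Msx1 varied little over the arrays, and its nearest genes, Lpar1, Stk16 and Cbfb, lay at 0.16, 0.17 and 0.17 where the median gene was at 0.45. Cbfb encodes the partner subunit of Runx2. Not all members were alike. From Dlx5, Msx1 was at rank 42, Dlx2 at 630, Dlx1 at 2494 and Msx2 at 3254. Msx2 lay at 0.63 from Dlx5, farther than the median gene at 0.60. Preparation 3 deviated from the group means by -0.50 on average for Msx2 and by 0.16 for Dlx5. The preparations and the size of a change thus enter this distance too, and it does not measure unlike responses to treatment. From Msx1, Dlx5 lay at 0.34, while Dlx2, Dlx1 and Msx2 lay at 0.52, 0.59 and 0.64, farther than the median gene.

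**Figure D4:**
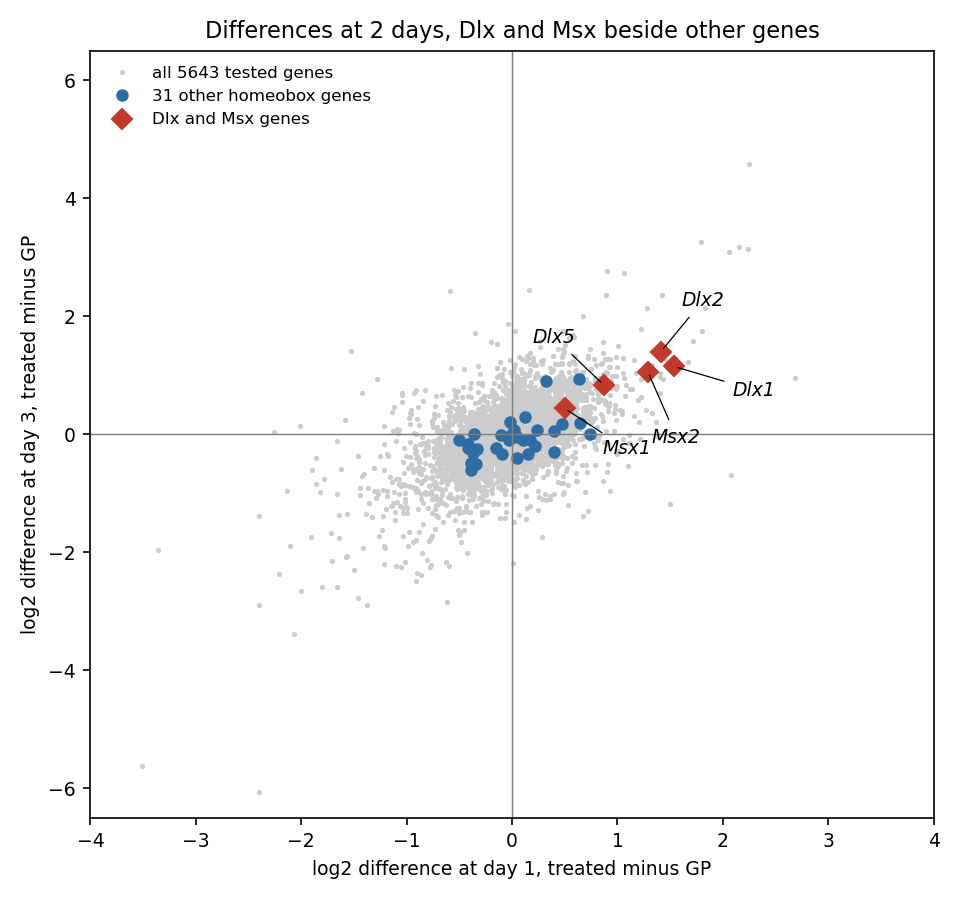
Log2 difference of treated minus GP cultures at day 1 (x axis) against day 3 (y axis) for 5643 tested genes (grey), 31 other homeobox genes (blue) and the 5 Dlx and Msx genes (red). The Dlx and Msx genes lie at 0.50 to 1.54 on the x axis and 0.44 to 1.40 on the y axis, and the other homeobox genes at -0.50 to 0.74 and -0.61 to 0.93.

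Other homeobox genes were set beside them. Of 101 listed 74 were on the array and 31 were tested. At day 1, 0 passed in limma without the block, where 1, Cux1, a cut-type repressor, rose by 0.65 with the block (adjusted p = 0.0503, and 0.00858 with the block). At day 3, 1 rose, Hlx, by 0.93 (0.0408), and with the block Hlx rose and 2 fell, Six2 by 0.50 and Zfhx3 by 0.49 (0.0217 and 0.0152 with the block). The median of the list was 0.02 at day 1, and on day 3 it was -0.10. Of all probe sets 0.295% rose at day 1 and 2.03% at day 3 without the block, and 2.07% and 6.84% with it. The numbers that rose in this list were near these shares. No test set this list against the Dlx and Msx genes.

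Of 22 tested genes of BMP signalling and feedback 2 rose at day 1, where 0.295% of all probe sets rose. With the block 5 rose, where 2.07% of all did, and 1 fell. The median of the list was 0.08. Smad6 rose by 1.72 (limma adjusted p = 0.0158) and Klf10, a TGF-beta-inducible factor, by 1.05 (0.0281). At day 3, 3 rose, where 2.03% of all probe sets did, and 1 fell, as did 155 of all 7453. With the block 5 rose, where 6.84% of all did, and 1 fell. The median was 0.18. Those that rose without the block were Id2 by 3.15 (0.0107), Id3 by 3.26 (0.00114) and Smad6 by 1.58 (0.00917). Id2 and Id3 encode inhibitors of basic helix-loop-helix factors and are known BMP targets. Id4, of the same family, fell by 2.49 (0.00114). Of 15 other osteoblast transcription factors 0 passed at day 1 without the block. Cbfb differed by 0.48 (limma adjusted p = 0.104, and 0.0276 with the block), and at day 3 it rose by 0.53 (0.0325). Sox11 differed by -0.68 at day 3 (0.128, and 0.00263 with the block). Of the bone genes reported as Dlx or Msx targets 3 were tested. Alpl, alkaline phosphatase, was at 630 ± 310 in treated and 24.97 ± 7.31 units in GP cultures (SD, n = 3 each) at day 3 and rose by 4.58 on the log2 scale (limma adjusted p = 0.000406), while Col1a1 and Col1a2 differed by 0.28 and 0.24 and did not pass. Its GP values lay near the signal filter of 22.3. At day 1 Alpl differed by 2.24 (0.0519, and 0.0212 with the block). Of 5 tested genes for proteins reported to bind Dlx or Msx proteins 0 passed at either day without the block. At the shares over all probe sets, 0 among 5 genes tells nothing about this list. The same holds for 0 among the 15 osteoblast factors at day 1. Maged1, which binds Dlx5 and Msx2 proteins, differed by 0.21 at day 1 and 0.33 at day 3. Ndn, necdin, differed by -0.38 and -0.71, the second of which passed with the block (0.125, and 0.0104 with the block). Pja1, a ubiquitin ligase for Maged1, differed by -0.26 and -0.25, Pias1 by -0.18 and -0.23 and Pias2 by 0.38 and 0.22.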

How the data were processed

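The authors deposited a linear intensity for each of 12488 probe sets on each array, and the software that made it is not given in the sources used here. Trimmed means of the 15 deposited columns ran from 149.1 to 149.97, so the values had already been scaled. Here 66 control probe sets were left out, a floor of 2.8 (the 10th percentile) was set, and intensities were put on a log2 scale. The signal filter of 22.3 was the 40th percentile of probe set means. R 4.3.3 with limma 3.58.1 (lmFit and eBayes with a mean trend) fitted all 15 arrays together, with 10 residual degrees of freedom, or 8 with the preparation number as a block. The number of arrays limits the precision. The limma fit without the block was tested on simulated data with no preparation effect, in the comparison of treated and GP cultures at day 1. The real arrays deviated together by preparation number, so that simulation does not show how this fit behaves on them. Symbols came from the platform annotation, where 10833 probe sets had 1 symbol, 396 several and 1193 none. All probe sets of the 6 genes are described. Of the other lists, up to 4 genes with the smallest p are named, and likeness took 3 genes each. The genes and lists were chosen with earlier results of these data known. Pairing was checked from deviations from group means. Alternatives changed the scaling, floor, filter, variance model, weights, block and arrays used.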

Additional observations from a re-analysis of the deposited data

How the results depend on the processing

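All 30 alternatives kept the sign of Dlx1, Dlx2, Dlx5 and Msx1 between treated and GP cultures on both days, as did the 29 that could be fitted for Msx2, which the filter at the 60th percentile removed. The number of the 5 genes past the threshold at day 1 was 2. It was 1 with quantile normalization, no signal filter or no mean trend, and 3 with array weights. With the replicate block it was 4 (3 with the block and no signal filter), and it was 0 in a fit of only the groups compared. At day 3 it was 1, and it was 2 with the filter at the 60th percentile, 4 with array weights, 4 with the replicate block (4 also with the block and no signal filter) and 0 in a fit of only the groups compared. Without 1 array or 1 preparation it ran from 0 to 4 at both days, blocked fits included. Against day 0 the treated day 1 count was 3. It was 2 with median scaling or the floor at the 60th percentile, and 4 with the block. It was 1 with no signal filter, no mean trend or only the groups compared and 0 to 4 without 1 array or preparation. The treated day 3 count was 2, and it was 3 with the block. It was 0 with median scaling or only the groups compared and 0 to 3 without 1 array or preparation. The GP day 3 against day 1 count was 0, and 0 to 1 without 1 array or preparation. Shares of all probe sets past the threshold were given above only for the fits of all arrays, without or with the block. The counts in the other fits have no share beside them, so they cannot be set against the calls over all probe sets. With the floor at the 60th percentile, 79.0, the day 1 count was also 2, but of Dlx2 and Msx2, and the Msx2 difference was 0.73 at day 1 and 0.32 at day 3, where all 6 of its GP values lay under that floor. The difference between the effects at the 2 days turned sign with array weights for Dlx2 (0.41), Dlx5 (0.10) and Msx1 (0.066), and for Dlx2 with quantile normalization (0.0026) and median scaling (0.0027). In fits with no block and without 1 array or preparation it ran from -0.30 to 0.45 for Dlx2, -0.19 to 0.16 for Dlx5, -0.34 to 0.19 for Msx1 and -0.49 to 0.16 for Msx2. For treated day 3 against day 1 it ran from -0.13 to 0.43 for Dlx5 and -0.19 to 0.034 for Msx1. With the block these ranges were -0.22 to 0.27 for Dlx5 in the first comparison and -0.23 to 0.12 for Msx1 in the second. None of these differences passed. The causes were not tested. The fixed list of alternatives named the filter as a percentile of single values. That reading, 24.9, with 7271 probe sets tested, changed none of the calls of Dlx1, Dlx2, Dlx5, Msx1 and Msx2 for treated against GP cultures. The fits with the block and 1 array or preparation left out, the block without a filter and that last filter were added after the data were seen. Intensities near the floor limit Dlx3.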
